A study of Oryza sativa Japonica Group with 27 samples.

Results

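Balanced 2-isoform loci were rice loci listed with exactly 2 transcripts, both of them counted, whose less counted transcript held 30% to 50% of at least 500 counts summed over the 13 libraries read with the custom sequencing primer. A locus is the identifier before the dash (OS07T0141400) and its transcripts carry a suffix (OS07T0141400-01, OS07T0141400-02). The rule found 176 loci with 352 transcripts. They came from 267 loci of at least that depth with both transcripts counted, 4057 loci listed with exactly 2 transcripts and 35679 loci in all. The share itself chose the members, so its pooled values are a description and carry no test, whereas the comparisons between libraries were not used in the choice.

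Many plant genes yield more than one mature transcript, through alternative splicing and alternative start or end sites. Isoforms of one gene share most of their sequence, so a short read often matches both and only reads from the differing stretch tell them apart. Structure-seq2 maps RNA folding: dimethyl sulfate (DMS) methylates unpaired adenines and cytosines, and the modified base stops reverse transcription. The tables used here hold reads counted per transcript, without the stop positions, so reactivity was not analysed.

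The samples were 27 readings of 14 libraries from 14-day shoots of Nipponbare, a japonica rice cultivar, after poly(A) selection. The biotin variation had 2 libraries with DMS and 2 without it. It used biotin and streptavidin pull-down, in place of gel purification, after reverse transcription and after ligation. The standard protocol likewise had 2 libraries +DMS and 2 libraries -DMS. The remaining -DMS libraries stood alone: biotin only (biotin added, gel purification kept), Ex Taq (Ex Taq as the PCR enzyme in place of Q5), low RT denaturation (65 °C without salt before reverse transcription, in place of 90 °C with salt), low RT reaction (a reverse transcription step run at 50 °C, not 55 °C), agarose (agarose gel as the last purification) and Circligase (in place of T4 DNA ligase). All shared cultivar, organ and age, and Circligase was not in the custom-primer table. Whether replicates were separate plants is not stated in the labels. A p-value here therefore reflects the spread between libraries only, which may be technical.

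Custom-primer totals ran from 27118 to 468337 counts per library. The shallowest library, biotin variation -DMS replicate 1, gave 10 or more counts at 76 of 176 members and none at 29 members, while the other 12 libraries reached 10 counts at 158 to 176 members. The identifiers carry no gene names in the tables used here, so no function is given for any locus and the shoot label was not checked against marker genes.

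The members held 446814 of 3011972 custom-primer counts, which is 14.8%. Their counts ran from 501 to 52226 with a median of 957.5, and the 8 most counted members held 43.2% of the members' counts. The less counted transcript held a median share of 44.1%. It held 45% to 50% at 78 members, 40% to 45% at 40, 35% to 40% at 37 and 30% to 35% at 21. The 95% Wilson interval of the pooled share, which covers counting error only, contained 50% at 51 members. Among the 91 equally deep loci outside the window, the median smaller share was 17.4%, and it was under 5% at 9 of them.

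**Figure D1:**
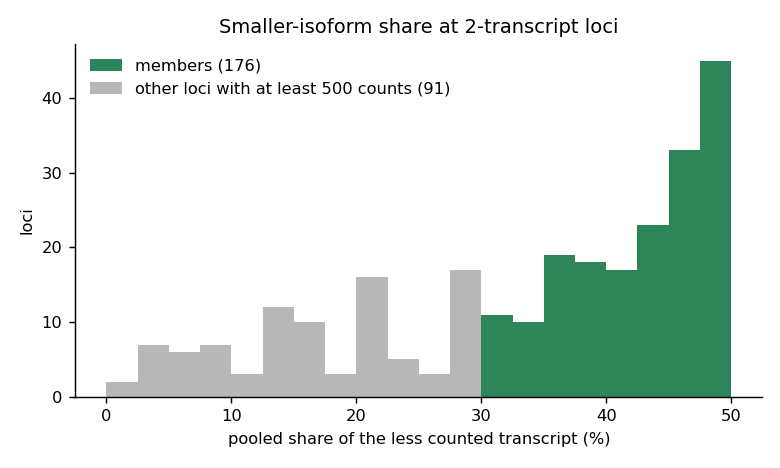
Number of loci (vertical axis) by the pooled share of the less counted transcript in percent (horizontal axis), for the 267 loci with 2 counted transcripts and at least 500 custom-primer counts. The 176 members (green) begin at 30% by rule and are most frequent next to 50%, and the 91 other loci (grey) spread below 30%.

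The first-listed transcript, the one with the lower suffix, was the larger at 136 members (77.3%) and the smaller at 39, and 1 member had equal counts. At the 91 deep loci outside the window the first-listed transcript was the larger at 84 (92.3%). The transcripts were numbered -01 and -02 at 164 members and carried other suffixes at 12. Members lay in all 12 chromosome fields of the identifiers, with 3 to 30 members each and the most in field 3. At the lower limit of the share, OS07T0680600 (30.03% of 796 counts) and OS12T0420200 (30.4% of 3313 counts) were just inside. OS01T0332100 (29.95% of 1843 counts) and OS02T0600200 (29.6% of 1463 counts) were just outside. At the limit of depth, OS06T0479200 (501 counts) and OS07T0608100 (504 counts) were inside, and OS11T0184900 (496 counts) and OS06T0107100 (493 counts) were outside.

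The shares are shares of counted reads. How reads matching both isoforms were counted is not known here, so a share near 50% need not be the proportion of the isoforms. The most counted member, OS12T0274700, had 52226 counts with 51.8% of them on its first-listed transcript. OS07T0529600 had 33992 counts and a first-listed share of 50.7%, and OS03T0786100 had 12464 counts and a share of 49.8%. OS08T0502700 (21059 counts) and OS09T0541000 (12186 counts) stood at 52.4% and 51.3%. Of the 8 most counted members, the other three were less even: OS01T0600900 with 22347 counts and 63.2%, OS08T0435900 with 18354 counts and 60.3%, and OS03T0592500 with 20588 counts and 57.9%.

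Shares varied between libraries by more than counting error at many members. The measure was the Pearson chi-square of the share over the 13 libraries divided by its degrees of freedom, which is near 1 when libraries differ by counting error alone. Its median over members was 1.46 and its mean 1.99, with a range of 0.219 to 9.24. It was above 2 at 63 members and under 1 at 45. Between replicates of one kind the mean was lower: 1.28 for biotin variation +DMS, 1.84 for biotin variation -DMS (144 members), 1.17 for standard +DMS and 1.02 for standard -DMS.

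Among members with at least 1000 counts, the steadiest was OS02T0666200, with 1993 counts, a chi-square of 0.388 per degree of freedom and shares from 42.1% to 52.4% by library. OS01T0924000 (0.439) and OS03T0267300 (0.478) followed. OS03T0267300 had 7029 counts, and its first-listed share stayed between 47.8% and 55.6%. The least steady were OS08T0435900 (9.24), OS01T0600900 (9.02) and OS12T0420200 (8.87). OS12T0420200 had a first-listed share of 57.6% and 59.9% in biotin variation +DMS, 72.7% and 66.0% in biotin variation -DMS, 68.3% and 71.2% in standard +DMS, and 72.6% and 77.1% in standard -DMS. Its highest shares were in Ex Taq (88.7%) and low RT denaturation (80.1%), which lay above every other library.

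The first question was whether the isoform share moves with DMS. Summed over the 176 members, the first-listed share was 52.1% and 51.8% in biotin variation +DMS and 53.3% and 52.8% in standard +DMS. It was 56.4% and 53.9% in biotin variation -DMS and 55.8% and 55.9% in standard -DMS. The other -DMS libraries stood at 56.2% (biotin only), 56.4% (Ex Taq), 57.5% (low RT denaturation), 58.0% (low RT reaction) and 56.1% (agarose). All 4 +DMS libraries thus lay below all 9 -DMS libraries, with 52.5% ± 0.681 in +DMS and 55.5% ± 1.09 in -DMS of the replicated kinds (SD, n = 4 each). No p is given, since this is one score over members chosen with results of these data known.

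The order did not rest on a few deep loci. Without the 8 most counted members, a check added after seeing the data, the sums were 52.8% to 54.3% in +DMS and 55.3% to 60.7% in -DMS libraries. The median over members, which weights loci equally, was 53.3% to 54.1% in +DMS and 54.6% to 60.5% in -DMS libraries. Each member was also followed by the isoform that was larger in the 5 unreplicated libraries (175 members). The medians were then 53.2% to 55.2% in the 4 +DMS libraries and 55.6% to 62.8% in the 4 replicated -DMS libraries. The 5 choosing libraries were all -DMS, so the choice itself favours a higher share in -DMS, and this order is no independent support. The highest -DMS medians came from the shallow biotin variation -DMS replicate 1, and leaving it out does not change the order. The same tilt was present beyond the members: in the fit of both protocols the log2 change of the first-to-second ratio was below 0 at 61.4% of members and at 61.2% of the 961 loci tested. The median log2 change was -0.11 over members and -0.17 over all loci tested.

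**Figure D2:**
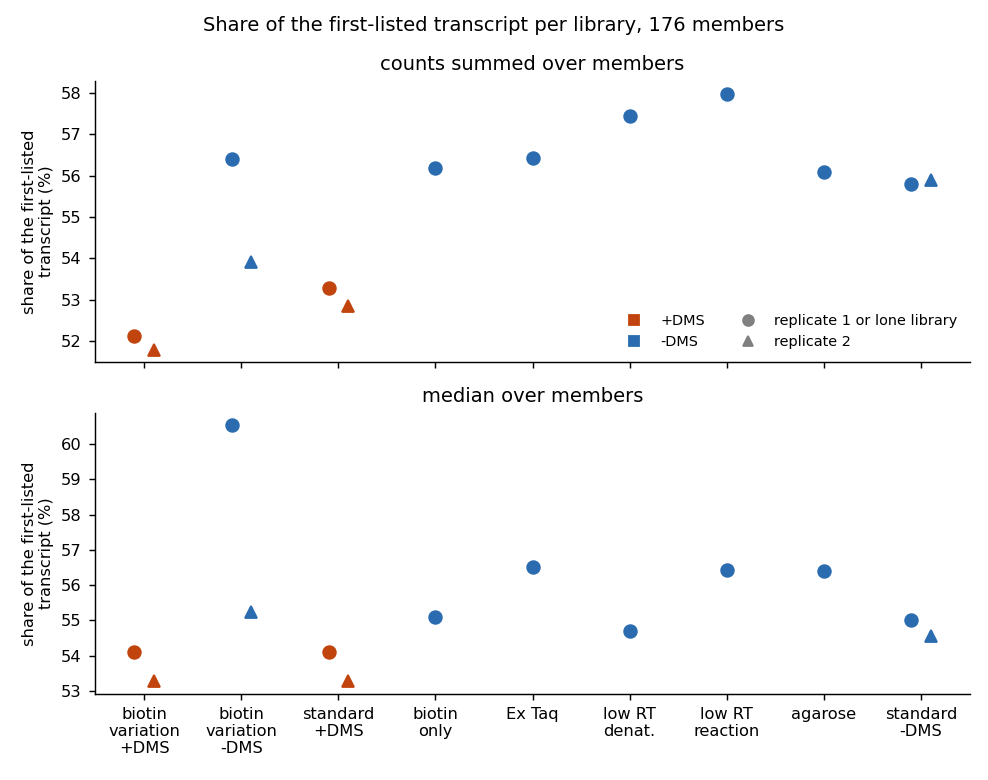
Share of the first-listed transcript in percent (vertical axes) in each of the 13 custom-primer libraries, grouped by kind (horizontal axis), for counts summed over the 176 members (top) and for the median over members (bottom). The 4 +DMS libraries (red) lie between 51.8% and 53.3% in the summed counts, below the 9 -DMS libraries (blue) at 53.9% to 58.0%, and the axes do not start at 0.

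Locus by locus, few members passed a test. The test was edgeR's quasi-likelihood test on the ratio of the 2 transcripts, with library as a block and Benjamini-Hochberg adjustment over all 2-transcript loci tested, and its call rule was an adjusted p under 0.05. With DMS in both protocols, 1 of 176 members was called, lower in +DMS. An unadjusted p under 0.05 was found at 13 members and at 71 of all 961 loci tested. The background was 3 of 961 loci called, which is 0.312%, and 2.22% of the 90 tested loci that were as deep but outside the share window. The median half-width of a member's 95% interval was 0.74 on the log2 ratio, which would carry a share of 50% to 62.5%. That interval is unadjusted, whereas a call needed an adjusted p under 0.05 over 961 loci. At a typical member, smaller shifts were not detectable at this depth, and shifts beyond 62.5% could also go uncalled. With DESeq2 or diffSpliceDGE in place of this test, or with the standard-primer readings, 0 members were called. The call was also lost without standard +DMS replicate 2 or without standard -DMS replicate 2, with 0 members called in each case.

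That member was OS07T0141400, with 12123 counts and a pooled first-listed share of 63.4%. Its share was 57.2% and 53.2% in biotin variation +DMS and 60.3% and 59.3% in standard +DMS. It was 69.7% and 65.4% in biotin variation -DMS and 63.4% and 65.9% in standard -DMS. The 4 +DMS libraries were all below the 4 -DMS libraries, and also below the 5 unreplicated libraries, which ran from 61.5% in low RT reaction to 70.7% in biotin only. The log2 change of the ratio was -0.45 (SE 0.0926, edgeR adjusted p = 0.0114), and the change was negative under each of the 16 alternatives, with adjusted p from 0.000135 to 0.9998. Within the biotin variation alone the change was -0.65 (edgeR adjusted p = 0.00658), and within the standard protocol alone it was -0.35 (edgeR adjusted p = 0.146).

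Below the threshold stood OS03T0125000, with 1028 counts. Its first-listed share was 57.2% and 56.8% in biotin variation +DMS and 50.0% and 54.6% in standard +DMS, against 76.5% and 61.4% in biotin variation -DMS and 78.8% and 73.2% in standard -DMS. The replicated groups did not overlap, but the shares rested on 17 to 205 counts each, and the log2 change of -0.96 did not pass (edgeR adjusted p = 0.350). Against standard -DMS, the log2 change was -1.37 in standard +DMS. In the unreplicated -DMS libraries it was -1.62 in low RT denaturation, -1.03 in biotin only and -0.96 in Ex Taq. It was -0.42 in agarose and 0.14 in low RT reaction, so lower shares were not confined to +DMS libraries. OS07T0108300, with 6095 counts, had 58.9% and 57.4% in biotin variation +DMS and 59.0% and 58.5% in standard +DMS, against 64.7% and 62.7% in biotin variation -DMS and 60.7% and 67.3% in standard -DMS. Its log2 change of -0.38 did not pass either (edgeR adjusted p = 0.447). Against standard -DMS, its log2 change was -0.42 in standard +DMS. In the unreplicated -DMS libraries it was -0.65 in Ex Taq, -0.44 in low RT denaturation and -0.40 in biotin only. It was -0.06 in agarose and 0.29 in low RT reaction, so here too lower shares were not confined to +DMS libraries. On the other side, OS01T0842200 had 56.7% and 62.5% in biotin variation +DMS and 60.4% and 61.5% in standard +DMS. Its share was 48.4% in biotin variation -DMS replicate 2, with no count in replicate 1, and 45% and 45.8% in standard -DMS, and it did not pass (edgeR adjusted p = 0.717). Against standard -DMS its log2 change was 0.90 in standard +DMS. It was also above 0 in the unreplicated -DMS libraries, from 0.30 in biotin only to 0.94 in Ex Taq.

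At 145 members every one of the 8 replicated libraries had a share. The mean of the +DMS libraries was lower at 103 of them and higher at 42, with a median difference of -2.82 percentage points. The +DMS libraries lay wholly below the -DMS libraries at 12 of the 145. The background was 18 of the 428 loci with a share in all 8 libraries, 4.21%, and these 12 members are among the 18. They lay wholly above at 2, where the background was 5 of 428 loci, 1.17%, with these 2 members among them. Within the protocols, the mean share was lower with DMS in both at 55 of the 145 members, higher in both at 15, and divided or equal at 75. A fall was the more frequent direction over all loci too. The fitted log2 change of the ratio was below 0 at 63.6% of members and 60.7% of the 1109 loci tested in the standard protocol. In the biotin variation it was below 0 at 59.1% of members and 55.0% of loci.

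Within the standard protocol, 0 of 176 members were called, where the background was 5 of 1109 loci, 0.451%, and 5.49% of the 91 equally deep loci outside the window. Before adjustment, 7 members and 62 of the 1109 loci had a p under 0.05. DESeq2, diffSpliceDGE and each fit without a library also called 0 members. The difference in mean share was negative at 109 members and positive at 67, with a median of -1.76 points and a median absolute difference of 4.67 points. As given above, the fitted change was below 0 at 63.6% of members and 60.7% of all loci tested. The lowest p belonged to OS07T0141400 and OS03T0125000, both described above. The lowest p among members with a higher share in +DMS belonged to OS04T0691600 and OS05T0401100. OS05T0401100 had 62.2% and 63.9% in standard +DMS and 56.3% and 52.9% in standard -DMS (log2 change 0.57, edgeR adjusted p = 0.859). OS04T0691600 had 61.4% and 59.3% in standard +DMS and 47.1% and 39.7% in standard -DMS (log2 change 1.07, edgeR adjusted p = 0.826), from 17 to 135 counts. Each unreplicated -DMS library was also above standard -DMS at OS04T0691600, with log2 changes from 0.39 in biotin only to 2.58 in agarose. At OS05T0401100 these changes ran from -0.24 in low RT denaturation to 0.67 in Ex Taq.

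Within the biotin variation, 4 of 176 members were called, 2 higher and 2 lower in +DMS, where the background was 7 of 1109 loci, 0.631%, and 3.3% of the 91 equally deep loci outside the window. OS07T0141400 was one of the lower. The other, OS08T0435900, had a first-listed share of 54.4% and 47.1% in biotin variation +DMS, against 82.1% and 59.1% in biotin variation -DMS (log2 change -0.72, edgeR adjusted p = 0.0349). The 82.1% came from 67 counts in the shallowest library, and without it the adjusted p was 0.539. The call was also lost without either standard -DMS library or without biotin variation +DMS replicate 2 (adjusted p 0.177 to 0.708). The 2 higher members rest on few counts. OS10T0115600 had 40 and 50 first-listed against 34 and 49 second-listed counts in biotin variation +DMS, and 0 and 2 against 5 and 18 in biotin variation -DMS (edgeR adjusted p = 0.0322). OS09T0367900 had 7 and 15 first-listed against 16 and 7 second-listed counts in biotin variation +DMS. In biotin variation -DMS it had no count in replicate 1, and 0 against 22 in replicate 2 (edgeR adjusted p = 0.0142), so the call rests on the 22 counts of 1 library. No fold is given for it because the -DMS first-listed count was 0.

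The count of 4 called members fell to 0 without standard -DMS replicate 1, without standard -DMS replicate 2 and without biotin variation +DMS replicate 2. It was 1 without biotin variation -DMS replicate 1, and 3 without either of the other biotin variation libraries. OS10T0115600 lost its call without any 1 of 6 libraries, all 4 of the biotin variation and both standard -DMS (adjusted p 0.0506 to 0.625). OS07T0141400 lost its call within the biotin variation without either standard -DMS library, either biotin variation -DMS library or biotin variation +DMS replicate 2 (0.0502 to 0.625). The difference of the DMS change, biotin variation minus standard protocol, was called at 1 of 176 members, OS09T0367900 (edgeR adjusted p = 0.0366). The background was 0.0902% (0 of the 91 equally deep loci outside the window). Without adjustment, 13 members and 80 of the 1109 loci tested had a p under 0.05. The call at OS09T0367900 also rests on the 22 counts, and DESeq2 and diffSpliceDGE called 0 members. It was lost without any 1 of the 4 standard libraries or biotin variation +DMS replicate 2, and without biotin variation -DMS replicate 2 there were 2 other calls.

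The next question was whether the share moves with protocol. Between the biotin variation and the standard protocol, 9 of 176 members were called, 4 with a higher and 5 with a lower first-listed share in the biotin variation. The background was 72 of 961 loci, 7.49%, and 28.9% of the 90 loci that were as deep but outside the window, so the members' 5.11% was no more than the background. Among the 145 members with a share in all 8 libraries, the biotin variation lay wholly above the standard protocol at 6, with a background of 6.78%, and wholly below at 4, with a background of 3.97%.

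One called member was OS11T0455800, with 1794 counts. Its first-listed share was 72.8% and 69.4% in biotin variation +DMS and 77.3% and 79.2% in biotin variation -DMS. It was 52.9% and 54.2% in standard +DMS and 64.6% and 65.0% in standard -DMS. The 4 biotin variation libraries were all above the 4 standard libraries, with a log2 change of the ratio of 1.08 (SE 0.226, edgeR adjusted p = 0.00175). This call held without each library in turn and with DESeq2, and was lost in the standard-primer readings (adjusted p = 0.505) and with diffSpliceDGE. OS08T0498400 was also higher in the biotin variation, with 82.1% and 50.0% in biotin variation +DMS and 75.0% in biotin variation -DMS replicate 2, where replicate 1 had no count. It had 25.7% and 43.2% in standard +DMS and 34.8% and 36.7% in standard -DMS (log2 change 1.96, edgeR adjusted p = 0.0126), from 23 to 88 counts per library. Its call was lost without either standard -DMS library (adjusted p = 0.0542 and 0.114), without biotin variation +DMS replicate 1 (0.153) or without biotin variation -DMS replicate 2 (0.106).

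Lower in the biotin variation was OS01T0131600, with 1110 counts. Its first-listed share was 51.2% and 51.5% in biotin variation +DMS and 63.2% and 57.9% in biotin variation -DMS, against 50.0% and 75.5% in standard +DMS and 90.0% and 83.4% in standard -DMS (log2 change -1.59, edgeR adjusted p = 0.00217). The groups overlapped through standard +DMS replicate 1, which had 24 counts. Without standard -DMS replicate 2 the adjusted p was 0.0848, without standard +DMS replicate 2 it was 0.0608, and without biotin variation -DMS replicate 2 it was 0.0597. OS02T0795300 had 16.7% and 15.8% in biotin variation +DMS and 0 of 6 counts in each biotin variation -DMS library. In the standard libraries it had 42.3% and 41.3% +DMS and 42.5% and 44.6% -DMS, so the protocols did not overlap (log2 change -2.19, edgeR adjusted p = 0.00608). The biotin variation shares came from 6 to 48 counts, and without standard -DMS replicate 2 the adjusted p was 0.0596. A deeper member, OS12T0420200 with 3313 counts and the shares given above, was also called lower (log2 change -0.70, edgeR adjusted p = 0.00509). Over the members, the count of 9 called became 5 without standard -DMS replicate 1 and 3 without standard -DMS replicate 2. It became 4 without biotin variation +DMS replicate 1, and DESeq2 called 2 members and diffSpliceDGE 0.

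**Figure D3:**
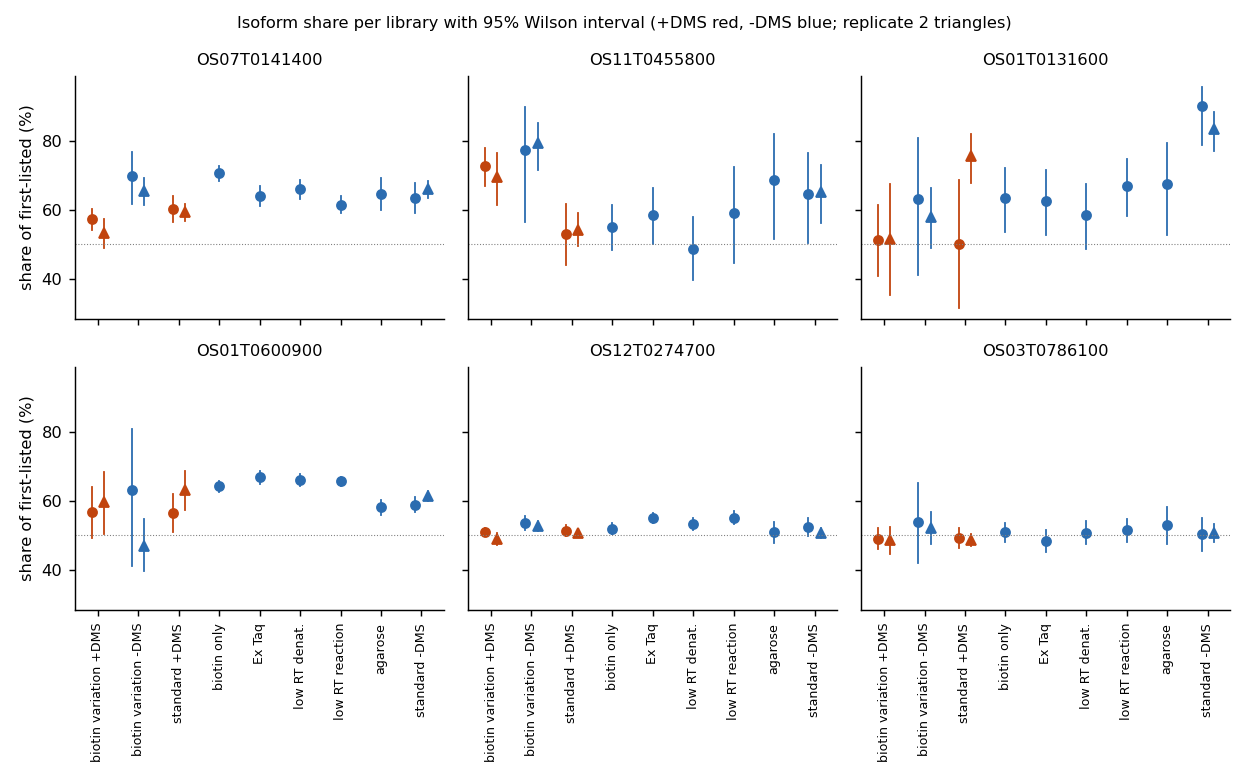
First-listed share in percent (vertical axes) in each of 13 custom-primer libraries by kind (horizontal axes) for 6 members, with vertical lines for the 95% Wilson interval of the counts and a dotted line at 50%. OS07T0141400 is lower in the +DMS libraries (red), OS11T0455800 is higher in the biotin variation, OS01T0131600 stands highest in standard -DMS at 90.0% and 83.4%, and OS12T0274700 and OS03T0786100 stay near 50%.

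Each unreplicated library was compared with the 2 standard -DMS libraries, on the assumption that a lone library varies like the replicated kinds. All of these comparisons share the standard -DMS libraries. With Ex Taq, 6 of 176 members were called, 3 higher and 3 lower, where the background was 0.992%, and 4.4% of the 91 equally deep loci outside the window. OS01T0600900 had a first-listed share of 66.8% in Ex Taq, against 58.9% and 61.3% in standard -DMS (log2 change 0.40, SE 0.0817, edgeR adjusted p = 0.00041). OS04T0497000 had 82.9% in Ex Taq, against 72.2% and 64.1% in standard -DMS (log2 change 1.30, edgeR adjusted p = 0.0494). On the lower side, OS05T0135700 had 56.3% in Ex Taq, against 78.0% and 77.0% in standard -DMS (log2 change -1.41, edgeR adjusted p = 0.014). OS01T0131600 had 62.6% in Ex Taq, below both standard -DMS libraries (log2 change -1.76, edgeR adjusted p = 0.0494).

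With low RT denaturation, 2 members were called, where the background was 0.451% (3.3% of the equally deep loci outside the window). OS01T0600900 was higher, with 66.0% (log2 change 0.35, edgeR adjusted p = 0.00642), and OS01T0131600 was lower, with 58.4% (log2 change -2.01, edgeR adjusted p = 0.0126). With low RT reaction, 4 members were called, all higher, where the background was 0.721% (4.4% of the equally deep loci outside the window). OS07T0469100 had 84.0% in low RT reaction, against 63.5% and 60.6% in standard -DMS (log2 change 1.72, edgeR adjusted p = 0.00036). OS05T0573700 had 81.1% in low RT reaction, against 63.3% and 60.1% in standard -DMS (log2 change 1.47, edgeR adjusted p = 0.00791). OS01T0600900 was called here too, as in Ex Taq and low RT denaturation (log2 change 0.33, edgeR adjusted p = 0.000648). OS08T0435900 was called in low RT reaction and in Ex Taq (log2 changes 0.40 and 0.32, edgeR adjusted p = 0.0182 and 0.0168). With biotin only and with agarose 0 members were called, where the backgrounds were 0 of 1109 loci. In these 2 comparisons 11 and 7 members had an unadjusted p under 0.05, as did 52 and 38 of the 1109 loci.

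None of the members called for the unreplicated libraries was called without standard -DMS replicate 1, without standard -DMS replicate 2, with DESeq2 or with diffSpliceDGE. Without standard +DMS replicate 1 the Ex Taq count was 3, with OS05T0135700 at an adjusted p of 0.0529, and OS04T0497000 and OS01T0131600 also lost their calls without each of the standard +DMS and biotin variation +DMS libraries (0.0536 to 0.0712). The biotin only count was 2 without either biotin variation -DMS library. OS01T0131600 stood at 90.0% and 83.4% in standard -DMS and at 50.0% to 75.5% in the other 11 libraries, so each unreplicated library was below that pair.

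The level of each transcript was tested as well, with edgeR's quasi-likelihood test on TMM-scaled counts over all transcripts that reached 10 counts in 2 or more of the fitted libraries. All 352 member transcripts passed that filter. These are bulk samples, in which fewer cells of a type and less RNA per cell cannot be told apart. At every member where a transcript was called in any of the 4 level comparisons, both transcripts had the same sign. With DMS in both protocols 22 of 352 member transcripts at 15 loci were called, 13 higher and 9 lower in +DMS, where the background was 1.32%, and 2.41% among transcripts at least as deep as the lowest member transcript. Within the standard protocol 18 were called, 4 higher and 14 lower, where the background was 1.28% (2.98% at that depth). Within the biotin variation 14 were called, 13 higher and 1 lower, where the background was 1.34% (2.5% at that depth). Between protocols 66 were called at 43 loci, 29 higher and 37 lower in the biotin variation, where the background was 13.2% (15.8% at that depth).

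These counts moved by over 1.5 times with each library left out in the 3 DMS comparisons. With DMS in both protocols they ran from 1 (without biotin variation +DMS replicate 2) to 54 (without biotin variation -DMS replicate 1). Within the standard protocol they ran from 4 (without standard +DMS replicate 2) to 106 (without biotin variation -DMS replicate 2). Within the biotin variation they ran from 0 (without either biotin variation +DMS library) to 102 (without biotin variation -DMS replicate 2). Between protocols they were 32 to 42 without 1 standard library and 141 without biotin variation -DMS replicate 1.

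Both transcripts were called at 7, 8 and 5 loci in the DMS comparisons of both protocols, the standard protocol and the biotin variation, and at 23 loci between protocols, in the same direction each time. The 2 log2 changes had the same sign at 142 of 176 members with DMS in both protocols and at 158 between protocols. Among other 2-transcript loci with both transcripts tested the sign was shared at 328 of 448 and at 341 of 448. With a transcript called, it was shared at 6 of 7 and at 78 of 84 of those loci, and both transcripts were called at 0 and 18. Within the standard protocol and the biotin variation, both transcripts were called at 0 and 1 of 667 other loci. The sign was shared there at 6 of 6 and 4 of 6 loci with a transcript called. The part of reads matching both isoforms in this was not tested. A called transcript level was found at 3 of the 9 members with a called share between protocols, at 1 of 4 with DMS in the biotin variation, and at 0 of 1 with DMS in both protocols. Over all members, the median gap between the log2 changes of the 2 transcripts was 0.25 with DMS in both protocols, where the median size of a log2 change was 0.54. Between protocols the gap was 0.35 and the size 0.77. The scaling left a median log2 change over all tested transcripts of 0.23 with DMS in both protocols, 0.76 within the biotin variation, -0.02 within the standard protocol and -0.36 between protocols, so levels are to be read against these.

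Among the 8 most counted members, the largest level changes with DMS or protocol were those of OS01T0600900 and OS03T0592500 with DMS in the standard protocol. OS01T0600900-02 had 859 and 378 CPM (counts scaled to the library total) in standard +DMS, against 9295 and 7550 CPM in standard -DMS. OS01T0600900-03 had 662 and 220 CPM in standard +DMS, against 6486 and 4764 CPM in standard -DMS. Both transcripts fell, 14.4-fold and 13.6-fold, with log2 changes of -3.85 (SE 0.421) and -3.76 (SE 0.503), at edgeR adjusted p of 1.34e-06 and 2.52e-05. The first-listed share was 56.5% and 63.2% in standard +DMS and 58.9% and 61.3% in standard -DMS, so the groups overlapped, and the +DMS replicates were the farther apart. The log2 change of the ratio was -0.04, with a 95% interval of -0.30 to 0.22. Over all 13 libraries this member was among the least steady, as given above.

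OS03T0592500 behaved likewise. Its first-listed transcript had 839 and 480 CPM in standard +DMS, against 6983 and 7763 CPM in standard -DMS, and its second-listed transcript had 596 and 365 CPM, against 5365 and 5908 CPM. The falls were 11.8-fold and 12.4-fold (edgeR adjusted p = 1.89e-05 for each), while the share was 58.5% and 56.8% in standard +DMS and 56.5% and 56.8% in standard -DMS. These 4 transcript calls held under each of the 16 alternatives. Both loci had low levels with the biotin variation as well. OS01T0600900-02 had 368 and 432 CPM in biotin variation +DMS, against 443 and 560 CPM in biotin variation -DMS. OS03T0592500-01 had 772 and 598 CPM in biotin variation +DMS, against 258 and 704 CPM in biotin variation -DMS.

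OS08T0435900 fell in standard +DMS too, with 1258 and 1360 CPM for its first-listed transcript in standard +DMS, against 4853 and 4920 CPM in standard -DMS (3.94-fold, edgeR adjusted p = 0.00253). Its second-listed transcript fell 3.57-fold (edgeR adjusted p = 0.0114). Without standard -DMS replicate 2 the adjusted p were 0.0528 and 0.136, and the first-listed transcript had 0.112 and 0.208 without 1 or the other standard +DMS library. The second-listed transcript also lost its call without standard -DMS replicate 1, either standard +DMS library or either biotin variation +DMS library (0.0851 to 0.397). The biotin variation did not show this fall. Its first-listed transcript had 1555 and 1030 CPM in biotin variation +DMS, against 2028 and 1027 CPM in biotin variation -DMS. The second-listed transcript had 1306 and 1156 CPM, against 443 and 711 CPM. The log2 changes with DMS there were 0.50 and 1.53, not past the test (edgeR adjusted p = 0.412 and 0.0517). OS08T0502700 had higher levels with DMS in both protocols. Its first-listed transcript had 8573 and 7627 CPM in biotin variation +DMS and 4814 and 5357 CPM in standard +DMS, against 3134 and 4153 CPM in biotin variation -DMS and 2075 and 2175 CPM in standard -DMS. Its transcripts rose 2.63-fold and 2.86-fold (edgeR adjusted p = 0.00952 and 0.00392), and its share was 53.3% and 50.6% in biotin variation +DMS, 52.3% and 51.0% in standard +DMS, 53.8% and 53.2% in biotin variation -DMS, and 56.8% and 52.5% in standard -DMS. Without biotin variation +DMS replicate 2 the adjusted p were 0.0788 and 0.0598, and OS08T0502700-01 also lost its call without biotin variation +DMS replicate 1 (0.0796) or standard +DMS replicate 2 (0.0679).

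**Figure D4:**
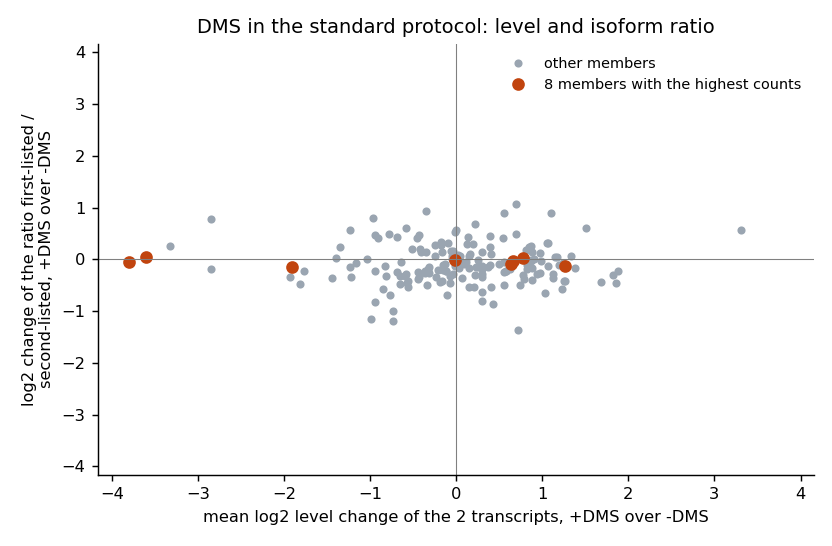
For each of 176 members, the log2 change of the ratio of first-listed to second-listed transcript (vertical axis) against the mean log2 level change of the 2 transcripts (horizontal axis), standard +DMS over standard -DMS, with equal scales. The 8 most counted members (red) lie close to the line of no ratio change while their level changes run from the fall of OS01T0600900 (-3.85 and -3.76) to positive values for OS08T0502700 (1.18 and 1.35, not past the test here).

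Between protocols, both transcripts of OS07T0529600 and OS12T0274700 were higher in the biotin variation under each of the 16 alternatives. OS07T0529600-01 had 13960 and 12921 CPM in biotin variation +DMS and 10989 and 10174 CPM in biotin variation -DMS, against 4657 and 4826 CPM in standard +DMS and 2351 and 2849 CPM in standard -DMS. The rise was 3.15-fold for this transcript and 3.13-fold for OS07T0529600-02 (edgeR adjusted p = 0.000234 and 0.000242). The change in its ratio was -0.000866 on the log2 scale, with a 95% interval of -0.09 to 0.09. OS12T0274700-01 had 16885 and 10523 CPM in biotin variation +DMS and 47607 and 15513 CPM in biotin variation -DMS, against 9648 and 9903 CPM in standard +DMS and 5886 and 5989 CPM in standard -DMS. Its transcripts rose 2.41-fold and 2.36-fold (edgeR adjusted p = 0.00481 and 0.00512), and the change in its ratio was 0.02, with an interval of -0.06 to 0.10.

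The standard-primer readings of the same 13 libraries served as a check and gave a more even picture of the same loci. The pooled smaller share was 46.6% in the median, 150 of 176 members were closer to 50% than in the custom-primer readings, and 154 had the same larger isoform. By the same rule 227 loci would have been chosen, 170 of them members. Across the 176 members the pooled shares of both readings had a Pearson r of 0.878, given as a description, since the readings come from the same libraries.

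The spread between libraries was smaller than counting error with the standard primer. The chi-square per degree of freedom had a median of 1.46 with the custom primer and 0.228 with the standard primer, and was lower with the standard primer at 173 of 176 members. It was under 1 at 45 members with the custom primer and at 146 with the standard primer. At OS03T0786100 the first-listed share ran from 48.4% to 53.7% with the custom primer and from 50.0% to 50.2% with the standard primer, with a chi-square per degree of freedom of 0.662 and 0.0008. Among pairs of a member and a library with at least 20 counts, the 2 transcripts had exactly equal counts in 59 of 1995 (2.96%) with the custom primer and in 273 of 1946 (14.0%) with the standard primer.

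The number of counts also differed. The members had 1.08 standard-primer counts per custom-primer count, loci listed with 2 transcripts had 1.02, and loci listed with 1 transcript had 0.661. How reads that match both isoforms were counted is not given in the sources used here, and its part in the shares was not tested. Summed over the members, the standard-primer first-listed share was again lower in +DMS, with 51.0% and 51.0% in biotin variation +DMS and 51.7% and 51.6% in standard +DMS, against 52.4% and 51.9% in biotin variation -DMS and 53.0% and 53.2% in standard -DMS. Its median over members did not separate the groups, with 50.0% and 51.0% in biotin variation -DMS, below the 51.3% and 51.6% of standard +DMS. Circligase, read with the standard primer alone, stood at 55.6%, above the other 13 libraries.

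**Figure D5:**
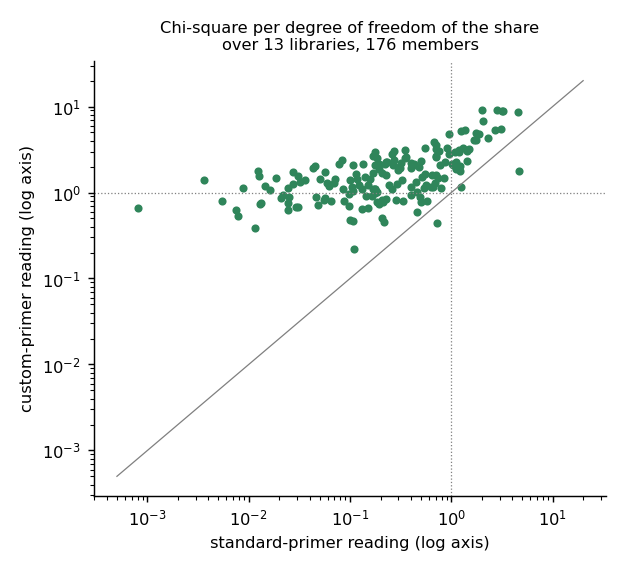
Chi-square per degree of freedom of the isoform share over 13 libraries for each of 176 members, with the custom primer (vertical axis) against the standard primer (horizontal axis), both log axes, with dotted lines at 1 and a grey line of equality. All but 3 members lie above the line, and with the standard primer 146 lie under 1.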

How the data were processed

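The values were whole-number counts per transcript from 2 tables, custom and standard sequencing primer, deposited by the authors. Per the submitters' processing notes, the tools were cutadapt and Bowtie2. The transcript set and how reads matching more than 1 transcript were counted are not stated in the sources used here. A letter read with both primers was taken as 1 library, and 0 columns belonged to samples outside the labels. The label of the molecule is total RNA, and poly(A) purification is given in the labels' protocols.

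The custom-primer counts were the main reading. The share was that of the first-listed transcript. Ratios were tested with edgeR 4.0.16 (quasi-likelihood, R 4.3.3, limma 3.58.1) on both transcripts of each library, with library as a block, for 2-transcript loci with at least 10 counts in 4 of 8 or 7 of 13 libraries and at least 10 counts of each transcript. DMS in both protocols and protocol were fitted over 8 libraries, and all other comparisons over 13 with a mean per kind. Library totals limit the precision. Wilson intervals cover counting error only, and edgeR intervals also the spread between libraries. Alternatives were the standard-primer readings, the sum of both readings, other count minimums, scalings and tools (DESeq2 1.42.0, diffSpliceDGE), the replicate number as a block, and leaving out each library. The tests were checked on simulated data.

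Named were the 8 most counted members, those called (at most 2 in each direction, by size) or with the lowest p in a comparison, and those with the highest and lowest chi-square (3 each, at least 1000 counts). Members not past the test are named for DMS in both protocols and in the standard protocol alone. The planned function groups and organ markers were not run, because 0 members matched the gene table used here. Members and lists were chosen with earlier results of these data known.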

Additional observations from a re-analysis of the deposited data

Results flagged for a closer look

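The difference of the DMS change between the biotin variation and the standard protocol passed the test at 1 member, OS09T0367900, which is what drew attention to it. Its log2 difference of the ratio was 8.23 (edgeR quasi-likelihood test, adjusted p = 0.0366), but its first-listed transcript had 0 counts in both biotin variation -DMS libraries, so the size depends on the prior count of the fit and is no bound. The second-listed transcript had 22 counts in biotin variation -DMS replicate 2 and 0 in replicate 1. In the standard protocol the first-listed share was 48.7% and 43.5% with DMS and 55.0% and 50.0% without it.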

How the results depend on the processing

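Counts below are members called of 176 (ratios) or member transcripts called of 352 (levels), in the order +DMS against -DMS in both protocols, biotin variation against standard, +DMS against -DMS in the biotin variation, difference of the DMS change, Ex Taq, low RT denaturation and low RT reaction, where the reported ratio counts are 1, 9, 4, 1, 6, 2 and 4. The standard-primer readings and diffSpliceDGE (TMM or RLE factors, over all loci with 2 or more transcripts, where the tested change is of 1 transcript against its locus) each gave 0 in all of these, and DESeq2 gave 0 except 2 for the protocols. A minimum of 50 counts gave 0 for DMS in both protocols, 2 for DMS in the biotin variation, 0 for the difference, 3 for Ex Taq and 0 for low RT denaturation. No filter gave 2 for DMS in the biotin variation, 0 for the difference and 1 for Ex Taq. The sum of both readings gave 0 for the difference, Ex Taq and low RT denaturation and 1 for low RT reaction, and the 8 replicated libraries alone gave 0 for the difference. With the replicate number as a replicate block the difference had 0, biotin only 1 (reported 0), Ex Taq 2, low RT denaturation 1 and low RT reaction 2. Same-numbered libraries showed little common deviation in share (r from -0.100 to 0.185 over 71 members). Shares at single members carry counting error, so these values cannot decide whether the numbers pair the samples.

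For levels, where the reported counts are 22 with DMS in both protocols, 66 between protocols, 18 with DMS in the standard protocol and 14 in the biotin variation, DESeq2 gave 42, 105 and, in the biotin variation, 4. The standard-primer readings gave 14 in both protocols and 9 in the biotin variation. The sum of both readings gave 8 in both protocols, 7 in the standard protocol and 0 in the biotin variation. A minimum of 50 counts gave 48 in the standard protocol and 9 in the biotin variation, and library totals alone gave 32 in the standard protocol.

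Leaving out each library gave 0 to 1 ratio calls for DMS in both protocols, 3 to 13 between protocols, 0 to 0 for DMS in the standard protocol, 0 to 4 in the biotin variation, 0 to 2 for the difference, 0 to 2 for biotin only, 0 to 9 for Ex Taq, 0 to 3 for low RT denaturation, 0 to 4 for low RT reaction and 0 to 0 for agarose. Level calls ran from 1 to 54, 32 to 141, 4 to 106 and 0 to 102 in the order given. Signs turned at OS01T0842200 with DMS in both protocols (-0.049) and OS04T0691600 with DMS in the standard protocol (-0.21), each in the standard-primer readings. The sign also turned at OS09T0367900 with DMS in the biotin variation without biotin variation -DMS replicate 2 (-0.062, with 9.02 as the highest of its values without 1 library). A rule of at least 1000 counts would keep 80 members and a window of 40% to 50% would keep 118. The cause of these changes was not tested. Shallow libraries limit single members most, above all biotin variation -DMS replicate 1.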
